A study of Mus musculus with 40 samples.

Results

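*Gnaz*, which encodes the alpha subunit of the G protein Gz, was followed with 8 related alpha subunit genes, *Gnao1*, *Gnai1*, *Gnai2*, *Gnai3*, *Gnas*, *Gnal*, *Gnaq* and *Gna11*, in RNA-seq libraries of mouse brain. The 9 genes were found by symbol among the 47643 genes of the deposited count tables, and all 9 passed the filter on low counts in every comparison. *Gnaz* was chosen by its lower counts in the post-KD hippocampus of these same libraries, so its hippocampal change is given as a description with no test, and the other 8 were added as relatives to ask whether they shared it. The recipients, of wild-type genotype and the outbred Swiss Webster stock, had been raised germ-free, and the methods describe them as females of 6 to 8 weeks on a control diet. Each cohort received the stool sample that 1 of 10 human donors gave before a ketogenic diet (pre-KD) or during it (post-KD). Hippocampus and frontal cortex were taken on day 4 after colonization, and each library pooled 6 mice of 1 cohort, so 20 cohorts gave 40 libraries, 10 for each region and condition. The replicate number names the donor, whose pre-KD and post-KD cohorts share it. The replicate here is therefore the cohort, the spread between mice of a pool was not seen, and fewer cells of a type and less RNA per cell cannot be told apart in such tissue libraries.

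Heterotrimeric G proteins carry signals from seven-transmembrane receptors: the receptor loads the alpha subunit with GTP, alpha and beta-gamma separate, and both act on effectors until the alpha subunit hydrolyzes the GTP. The Gi, Go and Gz subunits inhibit adenylyl cyclase and, through beta-gamma, open potassium channels and close calcium channels, while Gs and Golf stimulate adenylyl cyclase and Gq and G11 activate phospholipase C beta. Gz is found mainly in neurons, hydrolyzes GTP slowly, and differs from Gi and Go in that pertussis toxin does not modify it, and Golf (*Gnal*) is the stimulatory subunit of striatal neurons and olfactory epithelium.

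The toxin acts on a cysteine that lies 4 residues from the carboxyl end of Gi and Go, and the ends of the coding sequences are shown because this codon separates *Gnaz* from its nearest relatives. The end of *Gnal* is not shown. Each line gives the last 11 codons before the stop codon, 5′ to 3′, from GENCODE M21 transcripts, with the fourth codon from the end in capitals.
Gnaz: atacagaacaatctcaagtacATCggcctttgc
Gnao1: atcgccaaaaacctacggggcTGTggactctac
Gnai1: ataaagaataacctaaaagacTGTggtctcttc
Gnai2: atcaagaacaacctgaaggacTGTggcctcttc
Gnai3: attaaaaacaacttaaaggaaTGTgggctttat
Gnas: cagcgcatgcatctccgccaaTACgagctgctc
Gnaq: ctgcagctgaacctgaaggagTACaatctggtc
Gna11: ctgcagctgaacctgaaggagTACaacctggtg
The cysteine codon TGT stands there in *Gnao1*, *Gnai1*, *Gnai2* and *Gnai3*, the isoleucine codon ATC in *Gnaz*, and the tyrosine codon TAC in *Gnas*, *Gnaq* and *Gna11*. Over the whole coding sequence *Gnaz* was 69.9% identical to *Gnai2*, 67.0% to *Gnai1*, 64.2% to *Gnao1* and 63.9% to *Gnai3*, and 54.7% to 61.0% to the other 4. No stretch of 69 bases, the read length, was shared between 2 of the 9 genes, so reads of full length could be told apart.

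*Gnaz* (ENSMUSG00000040009) lies on the plus strand of chromosome 10 from 74967177 to 75016907 (GRCm38) and has 4 merged exons in GENCODE M21. The gene lies inside *Rsph14*, a gene of the opposite strand that shares 0 exon bases with it and had 0 counts in all 40 libraries. Of the exon bases of *Gnas*, 22.0% are shared with *Nespas* and *Gm20721* on the opposite strand, 7.6% of those of *Gnal* with *Mppe1*, and 2.6% of those of *Gnao1* with *4930488L21Rik*. Whether counting used strand is not given in the sources used here, so the values of *Gnas*, *Gnal* and *Gnao1* are uncertain for reads in these shared bases. *Nespas*, *Gm20721*, *Mppe1* and *4930488L21Rik* had 18, 93, 6 and 117 counts of their own over the 40 libraries. Those counts do not measure the uncertainty.

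Libraries held 1140756 to 2095352 counts on genes, and levels are given as CPM, the usual counts scaled to library size, after TMM normalization for library composition. The 8 libraries of replicates 9 and 10, which cover both conditions and both regions, held 139 to 276 counts of 4 Y-linked genes (*Ddx3y*, *Uty*, *Kdm5d* and *Eif2s3y*) and 6 to 42 of *Xist*, against 0 to 27 and 487 to 1191 in the other 32, which goes against the female sex given for all mice. Pre-KD and post-KD hold these replicates in equal number, and the log2 values below are also given without them where they moved by over 1.5 times or turned. Of the marker lists, the 6 neuronal genes summed to 4067 to 5616 CPM in every library, and 6 of 8 hippocampal markers passed the adjusted threshold in edgeR as higher in hippocampus, the labeled region, where 2.85% of all genes passed in either direction. All 8 tested striatal markers passed as lower in hippocampus, with summed levels of 57.4 to 381 CPM there against 623 to 1365 CPM in the frontal cortex, although *Drd2* of that list had 5 counts over all 40 libraries. Of 9 isocortex markers 5 passed and went both ways, with *Nr4a2* (log2 difference 1.12) and *Fezf2* (0.88) higher in hippocampus and 3, among them *Lamp5* (-1.33) and *Mef2c* (-0.60), lower. Choroid plexus genes summed to 497 to 4335 CPM in hippocampus and to 7.85 to 595 CPM in frontal cortex, and 4 of 7 passed as higher in hippocampus.

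Levels of different genes were compared per kilobase of merged exons, which assumes reads along whole transcripts. The methods and labels name such a kit (TruSeq), but the study's list of reagents names one that reads transcript ends (QuantSeq FWD), for which counts do not grow with length, and the files do not settle which was used. On this scale, over all libraries, *Gnao1* was the most abundant of the 9 at 90.1 ± 12 CPM per kilobase (SD, n = 40 libraries). It was followed by *Gnas* at 83.8 ± 10.3 and *Gnai2* at 66.7 ± 10.6 CPM per kilobase. *Gnaz* held rank 5 at 36.8 ± 11.5 CPM per kilobase, between *Gnai1* at 45.4 ± 15.5 and *Gna11* at 34.5 ± 8.81. *Gnaz* exceeded *Gna11* in 20 of the 40 libraries, and *Gna11* exceeded *Gnaq*, at 33.0 ± 7.73 CPM per kilobase, in 24, so these neighbors did not differ beyond their spread. The order moved between groups: *Gnaz* held rank 4 in the frontal cortex of both conditions, just above *Gnai1*, rank 5 in pre-KD hippocampus at 37.2 CPM per kilobase and rank 7 in post-KD hippocampus at 25.4, below *Gnaq* at 37.7 and *Gna11* at 37. *Gnas* at 90.8 stood above *Gnao1* at 87.1 CPM per kilobase in pre-KD hippocampus. *Gnal* stood at 16.4 ± 7.81 CPM per kilobase and exceeded *Gnai3*, the lowest at 2.20 ± 1.59, in 39 of 40 libraries. With the longest transcript as length *Gnaz* held rank 6 and *Gnas* rank 1, and with no division by length *Gnaz* held rank 8, at 133 CPM over all libraries. *Gnao1*, *Gnas* and *Gnai2* took ranks 1 to 3 and *Gnai3* rank 9 with and without the division. *Gnai3* had 0 to 33 counts per library and none in 3 libraries, which left its comparisons with wide intervals.

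In the pre-KD hippocampus *Gnaz* measured 88.8 CPM in the lowest library, 134 CPM at the median and 198 CPM in the highest. In the post-KD hippocampus the lowest library measured 64.4 CPM, the median 89.0 CPM and the highest 142 CPM. The groups overlapped: 5 of 10 post-KD libraries lay below every pre-KD library, and 5 of 10 pre-KD libraries lay above every post-KD library. The mean went from 134 ± 38.1 CPM to 91.7 ± 21 CPM (SD over 10 libraries in either group), a fitted log2 fold change of -0.56 (standard error 0.21, 95% interval -0.97 to -0.15, which carries the choice of the gene on these values). Of all genes tested, 20.3% had a lower fitted log2 fold change.

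By donor, *Gnaz* was lower post-KD in 9 of 10 pairs of hippocampal cohorts. The exception was replicate 5, which rose from 92.4 CPM to 142 CPM, the highest post-KD value. The largest decrease was that of replicate 8, from 198 CPM to 71.4 CPM. Leaving out each replicate in turn, the log2 fold change ranged from -0.70 without replicate 5 to -0.44 without replicate 8, and without replicates 9 and 10 it was -0.54, with means of 132 ± 42.9 and 91.7 ± 23.4 CPM over 8 libraries each. Each hippocampal library held 80 to 322 *Gnaz* counts, and the spread between libraries (coefficient of variation 28.3% pre-KD and 22.9% post-KD) was wider than counting alone gives at these depths (6.80% and 8.59%). Among the 5 genes of the Gi, Go and Gz class, *Gnaz* made up 8.99% ± 3.18 of the summed CPM in pre-KD hippocampus and 6.05% ± 1.14 in post-KD hippocampus.

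**Figure D1:**
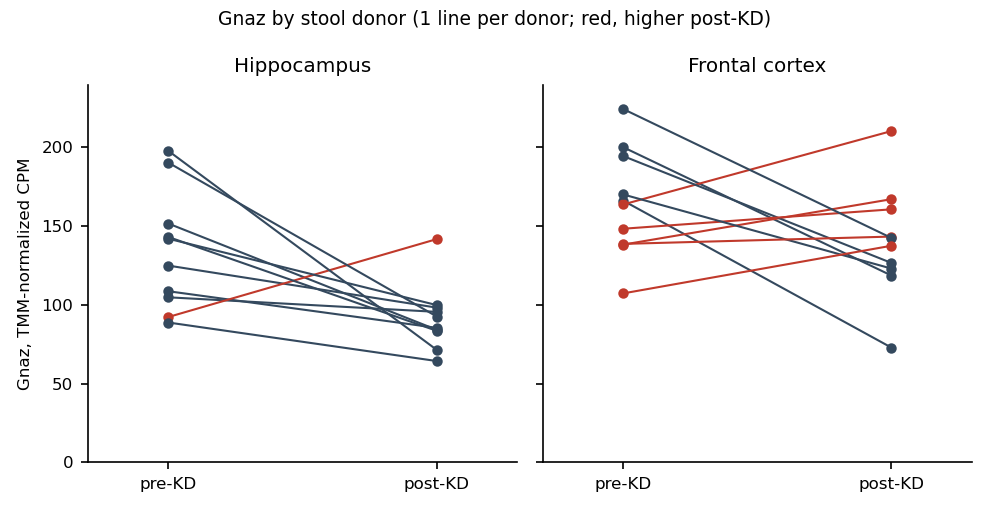
*Gnaz* level (TMM-normalized CPM, linear axis from 0) in the pre-KD and post-KD library of each donor, hippocampus on the left and frontal cortex on the right, with 1 line per donor and red lines where the post-KD library is higher. In the hippocampus 9 of 10 lines fall, and in the frontal cortex 5 fall and 5 rise.

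Of the other 8 subunits in the hippocampus, 4 had a positive and 4 a negative log2 fold change post-KD. Their median was -0.0078, the same as that over all 17529 genes tested. The negative ones were those of *Gnai1*, *Gnai2*, *Gnai3* and *Gnas*. The 95% intervals of 7 of the 8 overlapped that of *Gnaz*, and that of *Gnao1* did not. The *Gnaz* interval carries the choice of the gene, and differences from *Gnaz* were not tested. *Gnao1*, the Go subunit that binds many neuronal receptors, ranged from 647 over a median of 924 to 1183 CPM in pre-KD libraries and from 784 over 1049 to 1412 CPM in post-KD libraries. Its groups overlapped, 7 of 10 donors had the higher value post-KD, and the log2 fold change was 0.11 (95% interval -0.11 to 0.33).

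*Gnai2*, the closest relative of *Gnaz* in coding sequence, ranged from 197 over 260 to 312 CPM in pre-KD and from 184 over 225 to 319 CPM in post-KD hippocampus. In 7 of 10 donors the post-KD value was the lower one, 4 post-KD libraries lay below all pre-KD ones, and the log2 fold change was -0.16 (interval -0.47 to 0.14). Without replicates 9 and 10 it was -0.29, with 270 ± 30.9 and 222 ± 44.8 CPM over 8 libraries each. *Gnai1* measured 162 ± 63.5 and 150 ± 51.5 CPM, and its log2 fold change of -0.12 (interval -0.51 to 0.28) became 0.10 without replicates 9 and 10. *Gnai3*, also an inhibitory subunit, ranged from 3.46 over 10.8 to 24.0 CPM pre-KD and from 0 over 4.68 to 16.4 CPM post-KD, lower for 8 of 10 donors. Its libraries summed to 172 counts pre-KD and 87 post-KD, and its log2 fold change of -0.91 had an interval from -2.73 to 0.90, and was -1.40 with the donor as a block.

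The stimulatory subunits split evenly by donor in the hippocampus, each with 5 donors higher and 5 lower post-KD. *Gnas* measured 1015 ± 103 and 978 ± 128 CPM (log2 fold change -0.062, interval -0.27 to 0.15), and *Gnal* 108 ± 37.1 and 112 ± 54.2 CPM (0.046, interval -0.40 to 0.50). The phospholipase C coupled subunits *Gnaq*, at 215 ± 37.5 and 233 ± 52.2 CPM, and *Gna11*, at 143 ± 47.9 and 151 ± 25.9 CPM, had log2 fold changes of 0.11 (interval -0.21 to 0.43) and 0.074 (interval -0.31 to 0.45). Without replicates 9 and 10 these became 0.30 for *Gnaq*, at 203 ± 27.4 and 252 ± 39 CPM, and 0.20 for *Gna11*, and that of *Gnas* became -0.0082. With the donor as a block that of *Gna11* was 0.13.

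In edgeR's quasi-likelihood test 0 of the 8 passed the adjusted threshold of 0.05 (Benjamini-Hochberg over all genes) and 0 an unadjusted p of 0.05, where 0.0057% and 10.1% of all genes did. DESeq2 also gave 0 and 0 of the 8, where 0.0% and 3.42% of all genes passed. *Gnaz* was left out of these counts of members, since the contrast chose it. The share of all genes at an unadjusted p of 0.05 depends on the filter on low counts. In edgeR it was 221 of 9509 genes with filterByExpr, against 1762 of 17529 here.

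**Figure D2:**
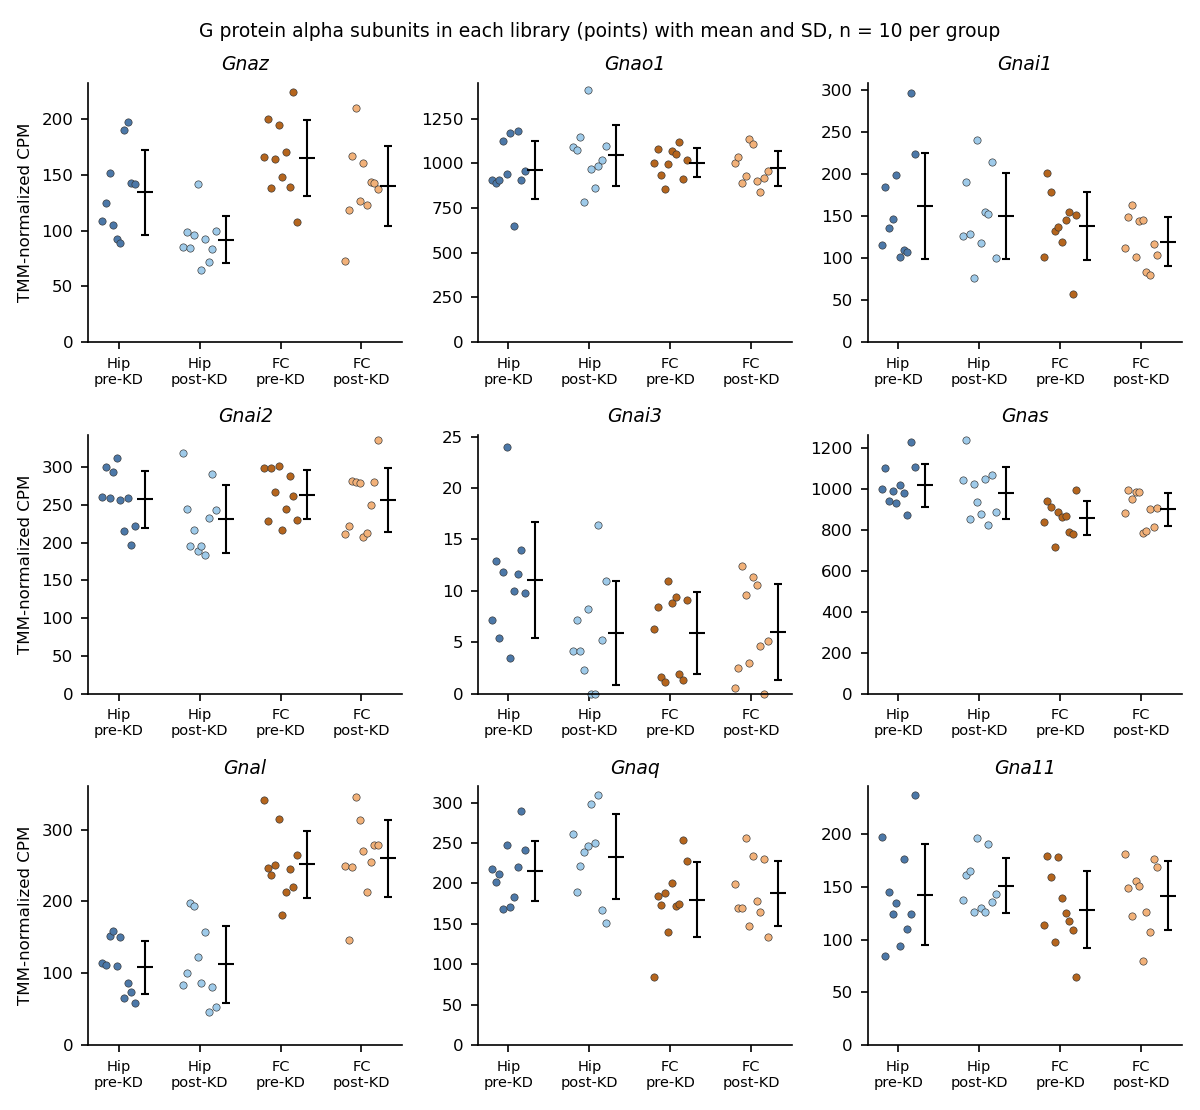
TMM-normalized CPM of the 9 alpha subunits in each library (points; Hip, hippocampus; FC, frontal cortex), with the mean and SD of the 10 libraries of a group as a bar beside them and every axis linear from 0. *Gnaz* is lower in post-KD than in pre-KD hippocampus with overlapping groups, *Gnal* is higher in the frontal cortex in both conditions, and *Gnai3* lies at or below 24.0 CPM throughout.

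Marker levels are set beside the hippocampal values of *Gnaz*. Over the 10 marker lists 0 of 66 tested genes passed the adjusted threshold in edgeR's quasi-likelihood test. In edgeR 3 reached an unadjusted p of 0.05, where 10.1% of all genes did, or 221 of 9509 genes with filterByExpr. DESeq2 gave 0 and 4, where 3.42% of all genes reached an unadjusted p of 0.05. All 8 tested striatal markers had a negative log2 fold change post-KD (median -0.53), and their summed level was 124 to 381 CPM in pre-KD and 57.4 to 272 CPM in post-KD hippocampus, lower post-KD in 7 of 10 donors and higher in replicates 1, 3 and 5. The 3 genes were the striatal *Ppp1r1b* (log2 fold change -0.64), 1 of 6 oligodendrocyte markers, the myelin gene *Mog* (0.90, 22.2 ± 15.2 CPM pre-KD and 41.6 ± 18.4 CPM post-KD) of a list whose summed level went from 2691 ± 576 to 2496 ± 521 CPM, and 1 of 8 hippocampal markers, *Prox1*, a transcription factor of dentate granule cells (96.7 ± 26.2 CPM in pre-KD libraries, 65.5 ± 23.0 CPM in post-KD ones). The 6 neuronal markers had a median log2 fold change of -0.069. In the difference between regions 4 of the 8 striatal markers reached an unadjusted p of 0.05 in edgeR, all with a lower value in hippocampus, where 2.22% of all genes did, and 2 of 8 did in DESeq2, where 4.89% of all genes did. By either tool 0 passed the adjusted threshold there. The part of these markers in the change of *Gnaz* was not tested.

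In the frontal cortex, whose libraries were not used to choose *Gnaz*, the change did not pass the test. Pre-KD libraries measured 107 CPM at the lowest, 165 CPM at the median and 224 CPM at the highest, and post-KD libraries 72.9, 140 and 210 CPM. The groups overlapped almost entirely, with 1 post-KD library below every pre-KD library. The means of 165 ± 34.4 and 140 ± 36 CPM (SD over 10 libraries each) gave a log2 fold change of -0.24 (standard error 0.15, 95% interval -0.54 to 0.059). Its adjusted p was 0.745 (edgeR's quasi-likelihood test with Benjamini-Hochberg adjustment).

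*Gnaz* was lower post-KD for 5 donors and higher for 5 in this region, and the differences ran from -93.4 CPM in replicate 1 to 46.6 CPM in replicate 4. Its share of the summed Gi, Go and Gz class was 10.5% ± 2.33 pre-KD and 9.39% ± 2.31 post-KD. Without replicate 4 the log2 fold change was -0.33 and the unadjusted p 0.0426 (adjusted p range over the left-out replicates 0.490 to 0.938, edgeR with Benjamini-Hochberg adjustment), and without replicates 9 and 10 the log2 fold change was -0.24, with means of 165 ± 23.4 and 140 ± 40.6 CPM over 8 libraries each.

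The other 8 subunits in the frontal cortex lay between a log2 fold change of -0.21 for *Gnai1* (interval -0.54 to 0.12) and 0.14 for *Gna11* (interval -0.18 to 0.45), 5 positive and 3 negative, with a median of 0.026 against 0.0085 over all 17873 genes tested. *Gnao1* (interval -0.22 to 0.12), *Gnas* (-0.11 to 0.24), *Gnai2* (-0.28 to 0.19) and *Gnal* (-0.21 to 0.30) had the narrowest intervals, and that of *Gnai3* reached from -1.57 to 1.59. In level, the pre-KD libraries averaged 1004 ± 82.5 CPM of *Gnao1* and the post-KD ones 972 ± 96.8 CPM, with 138 ± 40.3 and 120 ± 29.1 CPM of *Gnai1* and 264 ± 32.5 and 256 ± 42.3 CPM of *Gnai2*. *Gnaq* measured 180 ± 46.2 and 188 ± 40.2 CPM and *Gna11* 129 ± 36.4 and 142 ± 32.5 CPM, each higher post-KD for 5 of 10 donors, and *Gnas* 857 ± 81.4 and 898 ± 79.7 CPM, higher for 7 of 10. Of the 9 genes, 0 passed the adjusted threshold in edgeR's quasi-likelihood test and 0 an unadjusted p of 0.05, where 0.0056% and 9.68% of all genes did, and DESeq2 also gave 0 and 0, with 0.0113% and 4.62% of all genes. Without replicates 9 and 10 the log2 fold change of *Gnai2* became -0.15, that of *Gnaq* 0.19, that of *Gnai3* 0.15, that of *Gna11* -0.061 and that of *Gnal* -0.0012. In simulated data for this comparison 53% of well-counted genes changed by 2-fold were recovered at the adjusted threshold, and smaller changes were not simulated.

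**Figure D3:**
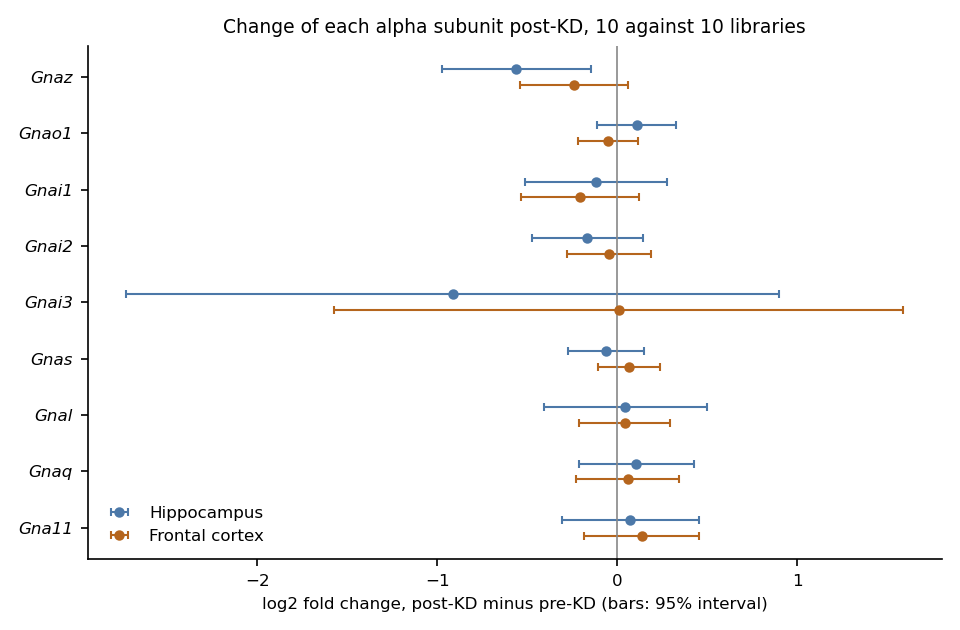
Log2 fold change of each alpha subunit, post-KD minus pre-KD, in the hippocampus and the frontal cortex (points) with its 95% interval (bars), from 10 against 10 libraries per region. *Gnaz*, the gene chosen for its hippocampal change, stands at -0.56 there and -0.24 in the frontal cortex, the 16 intervals of the other 8 genes include 0, and those of *Gnai3* are the widest.

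The change post-KD was set against that of the other region within the same cohorts, as the difference of the log2 fold changes (hippocampus minus frontal cortex). For *Gnaz* the difference was -0.28 (standard error 0.27, 95% interval -0.81 to 0.25), which holds the contrast that chose the gene and is given with no test. The other 8 lay between -0.90 for *Gnai3* (interval -4.06 to 2.25) and 0.17 for *Gnao1* (interval -0.077 to 0.41). Of these 8, 0 passed the adjusted threshold in edgeR's quasi-likelihood test and 0 an unadjusted p of 0.05, with 0.0154% and 2.22% of 19422 genes doing so, and DESeq2 gave 0 and 0, with 0.0% and 4.89% of genes. Without replicates 9 and 10 the difference became 0.35 for *Gnai1*, -1.53 for *Gnai3*, 0.29 for *Gna11*, 0.079 for *Gnaq* and -0.020 for *Gnal*, and it was -0.24 for *Gnaz*. Leaving out 1 replicate, that of *Gnaz* ran from -0.46 without replicate 5 to -0.14 without replicate 8, and was -0.18 without replicate 3. A change of *Gnaz* particular to the hippocampus was not shown by these data. In simulated data 9% of genes with a difference of 2-fold were recovered in this comparison.

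*Gnal*, the Golf subunit, was lower in hippocampus than in frontal cortex in 20 of 20 cohorts. Its hippocampal libraries measured 59.2, 111 and 159 CPM pre-KD (lowest, median and highest) and 45.9, 93.8 and 198 CPM post-KD, against 181, 246 and 341 CPM and 147, 263 and 346 CPM in the frontal cortex. The ranges did not overlap pre-KD and overlapped post-KD, where the lowest cortical library lay below the highest hippocampal one. The log2 difference, hippocampus minus frontal cortex, was -1.30 (standard error 0.12, adjusted p = 2.0e-24 in edgeR's quasi-likelihood test with the cohort as a block and Benjamini-Hochberg adjustment). It was -1.27 in the pre-KD and -1.32 in the post-KD libraries alone and -1.14 without replicates 9 and 10. The summed striatal markers moved with it, lower in hippocampus in every cohort, and their part in the *Gnal* difference was not tested.

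*Gnaz* was lower in hippocampus in 14 of 20 cohorts, 6 of 10 pre-KD and 8 of 10 post-KD, at 113 ± 37.1 against 153 ± 36.5 CPM (SD, n = 20 libraries per region). The log2 difference was -0.46 (standard error 0.13, adjusted p = 0.0279, edgeR's quasi-likelihood test with Benjamini-Hochberg adjustment), but these libraries include the hippocampal ones that chose the gene, so this is no independent test. In the pre-KD libraries alone it was -0.32 (adjusted p = 0.828, edgeR with Benjamini-Hochberg adjustment), and in the post-KD libraries alone -0.60 (adjusted p = 0.106, edgeR with Benjamini-Hochberg adjustment). The adjusted p rose above 0.05 when replicate 2, 3, 4, 6 or 9 was left out (0.0518 to 0.127, edgeR with Benjamini-Hochberg adjustment), to 0.0539 with RLE size factors and to 0.0531 without replicates 9 and 10, so the call rests on single cohorts and on the scaling. Neuronal markers summed to 4067 to 5233 CPM in hippocampus against 4579 to 5616 CPM in frontal cortex. Their median log2 difference of -0.15 was near that over all genes tested, -0.17. Of the 6, 2 passed the adjusted threshold in edgeR as lower, *Rbfox3* (log2 difference -0.34) and *Eno2* (-0.31), where 1.98% of all genes did so. The part of neuronal markers in the *Gnaz* difference was not tested.

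*Gnas*, the Gs subunit, was higher in hippocampus in 16 of 20 cohorts at 997 ± 115 against 877 ± 81.2 CPM, a log2 difference of 0.18 (adjusted p = 0.125, edgeR with Benjamini-Hochberg adjustment). *Gnaq* was higher in 16 of 20 cohorts at 224 ± 45.2 against 184 ± 42.3 CPM, a log2 difference of 0.30 (adjusted p = 0.166, edgeR with Benjamini-Hochberg adjustment). DESeq2 passed both, with adjusted p of 0.000817 and 0.0122, and the edgeR adjusted p of *Gnas* was 0.0271 with RLE size factors and 0.0470 without the cohort block. *Gnao1* did not differ beyond its spread (log2 difference 0.0092, interval -0.11 to 0.13), nor did *Gnai1* (0.24, interval -0.021 to 0.49), *Gnai2* (-0.096, interval -0.30 to 0.10) or *Gna11* (0.12, interval -0.14 to 0.38). Of the 8 members other than *Gnaz*, 1 passed the adjusted threshold in edgeR, *Gnal*, as lower in hippocampus, where 2.85% of 19422 genes passed and 1.98% did so as lower, and 3 reached an unadjusted p of 0.05, where 10.9% of all genes did. DESeq2 passed 3 of the 8 at the adjusted threshold, where 7.71% of the genes it adjusted passed, and 13.7% of all genes reached an unadjusted p of 0.05 in it. Without replicates 9 and 10 the log2 difference of *Gnai1* became 0.068, that of *Gnai3* went from 0.73 to 0.37, that of *Gna11* became 0.062 and that of *Gnao1* -0.011. The median log2 difference over all genes tested was -0.17, and relative to it *Gnal* stood at -1.13, *Gnaz* at -0.29, *Gnas* at 0.35 and *Gnaq* at 0.46.

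**Figure D4:**
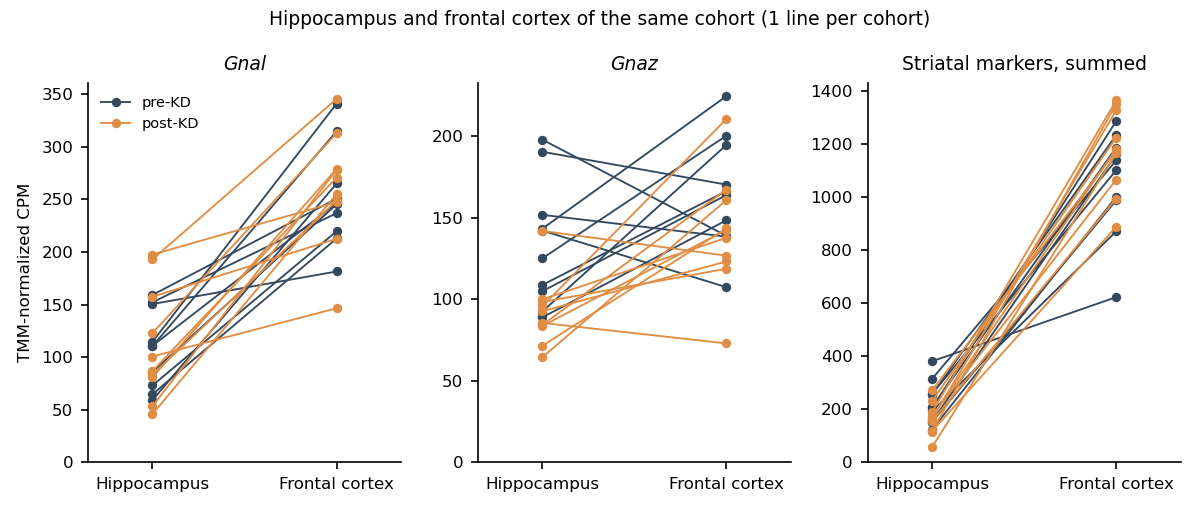
TMM-normalized CPM of *Gnal*, *Gnaz* and the sum of 9 striatal marker genes in the hippocampus and frontal cortex of each cohort (1 line per cohort, dark for pre-KD and orange for post-KD, linear axes from 0). All 20 lines rise toward the frontal cortex for *Gnal* and for the striatal markers, and 14 of 20 do for *Gnaz*.

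The partners of these subunits were followed as 8 lists with 100 genes in all. In the hippocampus 81 of them were tested post-KD against pre-KD, and in edgeR's quasi-likelihood test 0 passed the adjusted threshold and 1 reached an unadjusted p of 0.05, where 10.1% of all genes did, with 0 and 1 in DESeq2, where 3.42% did. That gene was *Rgs8*, a regulator that speeds GTP hydrolysis by Gi and Gq class subunits, whose pre-KD libraries averaged 74.6 ± 33.8 CPM and post-KD ones 44.9 ± 22.4 CPM (log2 fold change -0.73). The other alpha subunits gave 3 tested genes, all with a negative log2 fold change, and the 24 tested receptors that couple to Gi, Go or Gz gave 11 positive and 13 negative ones. The median over the 81 genes was 0.022 on the log2 scale against -0.0078 over all genes.

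In the frontal cortex 83 partner genes were tested, and in edgeR's quasi-likelihood test 0 passed the adjusted threshold while 4 reached an unadjusted p of 0.05, where 9.68% of all genes did, with 0 and 3 in DESeq2, where 4.62% did. The 4 are given by their levels only. *Adcy9*, an adenylyl cyclase, averaged 58.9 ± 16.5 CPM in pre-KD libraries and 38.4 ± 13.4 CPM in post-KD ones, and *Gpsm1*, which holds Gi subunits in their GDP-bound form, 29.0 ± 14.5 and 16.2 ± 10.3 CPM. *Npy2r*, a neuropeptide Y receptor, measured 1.09 ± 1.56 and 6.94 ± 6.09 CPM, with 18 and 119 counts in all. The dopamine receptor gene *Drd4* had 42 counts in 3 of 10 pre-KD libraries and 0 counts post-KD.

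Between regions, 84 partner genes were tested and 17 passed the adjusted threshold in edgeR's quasi-likelihood test, 2 as higher and 15 as lower in hippocampus, where 2.85% of all genes passed and 1.98% did so as lower, with a median log2 difference of -0.51 against -0.17 over all genes. Of 24 tested RGS proteins and other regulators 6 passed, all lower, among them *Rgs9* at 9.59 ± 13.1 CPM in hippocampus and 84.8 ± 24.4 CPM in frontal cortex, *Rgs6* (26.8 ± 18.6 and 56.8 ± 24.4 CPM), *Rgs4* (234 ± 55.3 and 476 ± 86.2 CPM) and *Rgs2* (95 ± 27.0 and 180 ± 43.2 CPM). *Rgs9* also stands on the list of striatal markers.

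Of the beta and gamma subunits *Gnb4*, *Gng7* and *Gng4* passed as lower in hippocampus, *Gng7* at 70.3 ± 18.9 against 164 ± 39.1 CPM. Gamma-7 is the known partner of Golf in striatal neurons. The cyclases went both ways: *Adcy5*, the main striatal cyclase, was lower in hippocampus (41.9 ± 24.9 against 93.8 ± 22.7 CPM) and the calcium-stimulated *Adcy1* higher (350 ± 93.8 against 254 ± 46.5 CPM). Among the phospholipases *Plcb4* and *Plcb1* passed as lower, with log2 differences of -1.36 and -0.45. Among the receptors *Oprk1*, *Grm3* and *Grm4* passed as lower in hippocampus and *Npy2r* as higher, at 22.4 ± 11.4 against 4.01 ± 5.27 CPM.

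No other alpha subunit stood among the 5 genes with the highest correlation with *Gnaz*. Over the 20 libraries of each region, after removing the mean of each condition, Pearson's r of log2 CPM with *Gnaz* averaged over regions was highest for *Ggps1* (0.53), *Rtn4r* (0.53), *Trerf1* (0.52), *Zmat3* (0.52) and *Sytl2* (0.52) of 6018 genes. The other 8 members lay between -0.12 for *Gnao1* and 0.27 for *Gnai3*. The named genes hold the highest of 6018 coefficients, and how high chance alone reaches was not tested. The libraries share their scaling, so these coefficients are a description. In hippocampus the log2 fold change post-KD was -0.29 for *Ggps1*, 0.68 for *Rtn4r*, 0.21 for *Trerf1*, 0.16 for *Zmat3* and 0.31 for *Sytl2*.

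No relation was detected between the level of a subunit in the hippocampus and its level in the frontal cortex of the same cohort, once the mean of each condition was removed from both, and with it the change that chose *Gnaz*. Over 20 cohorts *Gnaz* had a Pearson's r of -0.17 (permutation p = 0.463) and a Spearman's rho of -0.27 (permutation p = 0.248), and r was -0.099 without the 2 cohorts farthest from the hippocampal median. Of the 9 genes, which were adjusted together by the Benjamini-Hochberg method, *Gna11* had the lowest p, with r = -0.44 (permutation p = 0.0526, adjusted p = 0.473), rho = -0.30 (permutation p = 0.205) and r = -0.18 without the 2 farthest cohorts.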

How the data were processed

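The authors trimmed paired reads of 69 bases, aligned them to mm10 with STAR 2.5.2a, counted genes with HTSeq 0.6.0 and deposited raw counts, 1 table per region; the annotation release and strand setting are not given in the sources used here. These steps and a TruSeq kit are those of the methods and labels, whereas the study's list of reagents and software names the QuantSeq FWD kit, Trimmomatic and HISAT2, and which holds was not settled. All 40 columns were used (0 unmapped), every value proved to be a whole number, and 0 of 45 library pairs per group were identical. Gene IDs were matched to GENCODE M21 (47224 of 47643). The test was the quasi-likelihood one of edgeR 4.0.16 (TMM, R 4.3.3) on genes with 10 counts or more in the libraries compared, without a block within a region and with the cohort as a block between regions. P values were adjusted by Benjamini-Hochberg over all genes, and intervals are quasi-likelihood ones. P values measure the spread between pooled cohorts. Log2 CPM used a prior count of 2, and correlations 100000 permutations (scipy 1.17.1).

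The members, gene lists and tests were chosen with earlier results of these data known. Named genes are the members, genes overlapping *Gnaz*, per list at most 4 past the adjusted threshold or otherwise at most 2 below an unadjusted p of 0.05, and the 5 genes most like *Gnaz*; the Y-linked genes, *Xist*, overlap partners of *Gnas*, *Gnal* and *Gnao1*, *Prox1*, *Ppp1r1b*, *Mog* and *Drd2* were chosen after their values were seen. Donors pair the cohorts by design. After removing condition means, same-donor libraries correlated at r = -0.028 to 0.030 in hippocampus and -0.056 to 0.032 in frontal cortex, and 0 of 10 pairs per region exceeded 0.1. Alternatives were DESeq2 1.42.0, RLE size factors, no filter, filterByExpr, the donor or cohort block, the donor group, limma-voom 3.58.1 with sample weights, leaving out each donor and, added after seeing the data, 1 condition alone and leaving out donors 9 and 10. The procedure was tested on simulated data, in which only well-counted genes were changed, by 2-fold or 4-fold. Recovery of smaller changes, and of genes with as few counts as *Gnai3*, was not measured. Sequences were read from GENCODE M21 transcripts.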

Additional observations from a re-analysis of the deposited data

Results flagged for a closer look

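Of 36 sets of 10 libraries (9 genes in 4 groups), 2 held a library far from the rest, where chance alone marks about 1 in 20 groups. The post-KD hippocampal library of replicate 5 measured 142 CPM of *Gnaz*, with the next at 99.9 CPM, and is the library that stood against the lower level of the other 9 donors. The pre-KD hippocampal library of replicate 5 measured 24.0 CPM of *Gnai3*, with the next at 14 CPM, from 33 counts. Causes were not tested.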

How the results depend on the processing

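The log2 fold change of *Gnaz* in the hippocampus stayed between -0.70 and -0.44 in every fit. The number of members past the adjusted threshold between regions was 2 with *Gnaz* counted, and became 4 with DESeq2, 3 without the cohort block, 1 in pre-KD or post-KD libraries alone, 1 without replicates 9 and 10, and 1 to 2 when 1 donor was left out. Members at an unadjusted p of 0.05 between regions fell from 4 to 2 in pre-KD libraries alone, and with 1 donor left out numbered 0 to 1 in the frontal cortex and 0 to 1 for the difference between regions. *Gnaz* held rank 5 per kilobase, rank 6 with the longest transcript and rank 8 with no division by length. Members without a call changed sign: *Gnal* in hippocampus to -0.029 with the replicate block and -0.20 with limma-voom weights (-0.077 to 0.15 leaving out 1 donor), *Gnai1* in hippocampus to 0.10 without replicates 9 and 10 (-0.18 to 0.0034), *Gnai3* in frontal cortex to -0.27 with the block and -0.31 with limma-voom weights (-0.29 to 0.23), *Gnal* in frontal cortex to -0.0012 and *Gna11* there to -0.061 without replicates 9 and 10 (*Gnal* -0.016 to 0.11), and *Gnao1* between regions to -0.074 in pre-KD libraries and -0.011 without replicates 9 and 10 (-0.0079 to 0.047). Leaving out 1 donor also moved *Gnai2* (-0.12 to 0.0048) and *Gnaq* (-0.031 to 0.15) in frontal cortex, and in the difference between regions *Gnai1* (-0.050 to 0.24), *Gnaq* (-0.052 to 0.12), *Gnal* (-0.21 to 0.090) and *Gna11* (-0.17 to 0.20); without the cohort block that of *Gnal* was 0.0057, and without replicates 9 and 10 that of *Gna11* 0.29. The causes were not tested. The replicate block changed no call of a member in either region, and moved all genes at an unadjusted p of 0.05 from 1762 to 348 in hippocampus and from 1731 to 548 in frontal cortex. Those counts were 599 and 825 with DESeq2 and 962 and 1071 with limma-voom. They were 221 of 9509 and 407 of 10033 genes with filterByExpr, and 2931 of 20964 and 3035 of 21708 with no filter. With no filter 1291 hippocampal genes passed the adjusted threshold against 1. Between regions 554 genes passed it, against 1033 with DESeq2, 1935 without the cohort block, 251 and 193 in post-KD and pre-KD libraries alone. For the difference between regions 3 passed, against 348 without the block. In simulated data for the hippocampus 26% of 2-fold and 76% of 4-fold changes of well-counted genes were recovered, and smaller changes were not simulated. The 0 to 33 counts per library of *Gnai3* limit what can be said of it.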
